A study of Mus musculus with 8 samples.

Results

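A group of 41 genes expressed by macrophages and by leukocytes in general was followed in mouse quadriceps muscle, with and without the nucleoporin Nup210. The gene list was chosen with earlier results of these data known. Its members were the rows of the deposited expression table that carry a listed gene name, with no filter on their level. They were 41 of the 47643 genes in the table and filled 42 rows, since Cd37 is listed under 2 Ensembl identifiers. The genes fell into 8 classes by their known role. These were pan-leukocyte surface proteins and adaptors (8 genes), proteins of the leukocyte cytoskeleton and of adhesion (4), the growth factor receptor Csf1r with the lineage factor Spi1 (2), macrophage surface and lysosomal proteins (10), resident macrophage and scavenger receptor genes (6), complement C1q (3), Fc gamma receptors (4) and subunits of the NADPH oxidase (4).

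Skeletal muscle holds resident macrophages between its fibers, which clear debris, present antigen and make complement, and which are joined by blood-derived cells after injury. Macrophages depend on signals through the receptor Csf1r and on the transcription factor PU.1, the product of Spi1. Genes such as Ptprc, Coro1a and Lcp1 are used by nearly all white blood cells, granulocytes included. C1q, Folr2 and Timd4 are used mainly by resident macrophages, and Lyve1 by these and by lymphatic endothelium.

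The question was how the muscle transcriptome differs between knockout and control animals. Quadriceps of 4 Nup210-/- and 4 Nup210+/+ mice of the C57BL/6 strain was sequenced, with 1 polyadenylated RNA library per mouse. The Nup210-/- mice were constitutive knockouts, in which exon 2 of Nup210 was removed in the whole body by recombination of a floxed allele with Hprt-Cre. The sources used here do not give the age or sex of the sequenced mice. Expression was given as TPM, the relative abundance of transcripts after division by their length, on a scale where every library totals 1000000. The reads behind these values are unknown, so the precision rests on the spread between 4 mice. Each value is an average over the whole tissue, and fewer cells of a type cannot be told apart from less RNA per cell.

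Nup210 itself did not separate the genotypes. Libraries labelled Nup210-/- held 9.54, 10.79, 11.93 and 8.81 TPM (replicates 1 to 4), and those labelled Nup210+/+ held 5.71, 10.11, 9.19 and 6.71 TPM. The values overlapped and were not lower with the knockout label (log2 fold change 0.44, SE 0.15, limma adjusted p = 0.231). A value for the whole gene does not show whether exon 2 is present, so it does not check the labels. Genotypes are named as labelled throughout, and every direction below rests on these labels.

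Among the marker lists, 2 Nup210+/+ libraries stood apart. In Nup210+/+ replicate 2, 6 granulocyte-precursor genes (Elane, Mpo, Prtn3, Ctsg, Ms4a3 and Cebpe) were all highest and summed to 381.69 TPM, against 0.31 to 1.57 TPM in the Nup210-/- libraries and 0.31 to 2.12 TPM in the other Nup210+/+ libraries. Ms4a3 was listed at 0 in every library but this one. The sum of 8 neutrophil genes was 20.07 TPM there and 0.87 to 2.31 TPM elsewhere, and that of 5 red blood cell genes was 5304.63 TPM there and 879.66 to 3061.99 TPM elsewhere. In Nup210+/+ replicate 3, 5 of 5 fibroblast genes were highest, with a sum of 1233.32 TPM against 592.94 to 673.68 TPM in the Nup210-/- libraries and 622.01 to 852.18 TPM in the other Nup210+/+ libraries. Lymphocyte markers were scarce, with 8 T cell genes summing to 0.86 to 1.20 TPM in the Nup210-/- and 1.51 to 4.27 TPM in the Nup210+/+ libraries, 6 B cell genes to at most 3.17 TPM and 5 natural killer cell genes to at most 1.28 TPM. Sums of 5 dendritic cell genes were 5.06 to 7.18 TPM in the Nup210-/- and 6.29 to 12.57 TPM in the Nup210+/+ libraries, and those of 5 mast cell genes were 34.58 to 46.37 and 43.31 to 72.84 TPM. Endothelial genes summed to 65.04 to 81.03 TPM over all libraries. Muscle fiber genes were abundant in every library, and the sums of 5 such genes were 63974.18 to 69343.89 TPM in the Nup210-/- and 59314.33 to 63324.25 TPM in the Nup210+/+ libraries, without overlap. Their estimates were above 0 for 5 of 5 genes, and 2 of 5 were higher at an unadjusted p of 0.05 (limma), against 7% of all genes tested. TPM total the same in every library, so these sums and those of other genes are not independent. Estimates were below 0 for 5 of 5 fibroblast, 4 of 4 tested mast cell and 5 of 5 red blood cell genes (medians −0.34, −0.33 and −0.80). Of these, 2, 2 and 0 were lower at that p, against 7.18% of all genes. Among endothelial genes, 2 estimates were below 0 and 3 above (median 0.08). The part of any of these cells in the results below was not tested. Estimates without Nup210+/+ replicate 2, without replicate 3 or without both are given for the counts over all members and for the members described library by library.

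The estimate was below 0 for 40 of 40 tested members, that is, lower in Nup210-/- muscle, and 1 of them, Cd52, passed an adjusted p of 0.05. Over all 14229 genes tested, 51.3% had an estimate below 0 and 0.0633% were lower at an adjusted p of 0.05 (limma, Benjamini-Hochberg). No member was higher at an adjusted p of 0.05 (0.0492% of all genes were), at an unadjusted p of 0.05 (7% were) or without overlap (4.78% were). At an unadjusted p of 0.05, 23 of 40 members (57.5%) were lower, against 7.18% of all genes. In 17 of 40 members (42.5%) the 4 Nup210-/- values lay under the 4 Nup210+/+ values, against 4.6% of all genes. The median log2 fold change of the members was −0.55, with a range from −1.20 for Gmfg to −0.01 for Fcgr1, and that of all genes was −0.01. The members of a library share its cells, so they are not independent observations of a genotype. Since the list was chosen with earlier results known, these shares only describe it. Fcgr4, at a mean of 0.451 TPM, and the lesser Cd37 row, at 0.255 TPM, lay under the minimum mean of 0.5 TPM and were not tested. Among tested members, Trem2 alone had a Nup210-/- mean under that minimum (0.438 TPM), and it did not pass either threshold.

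**Figure D1:**
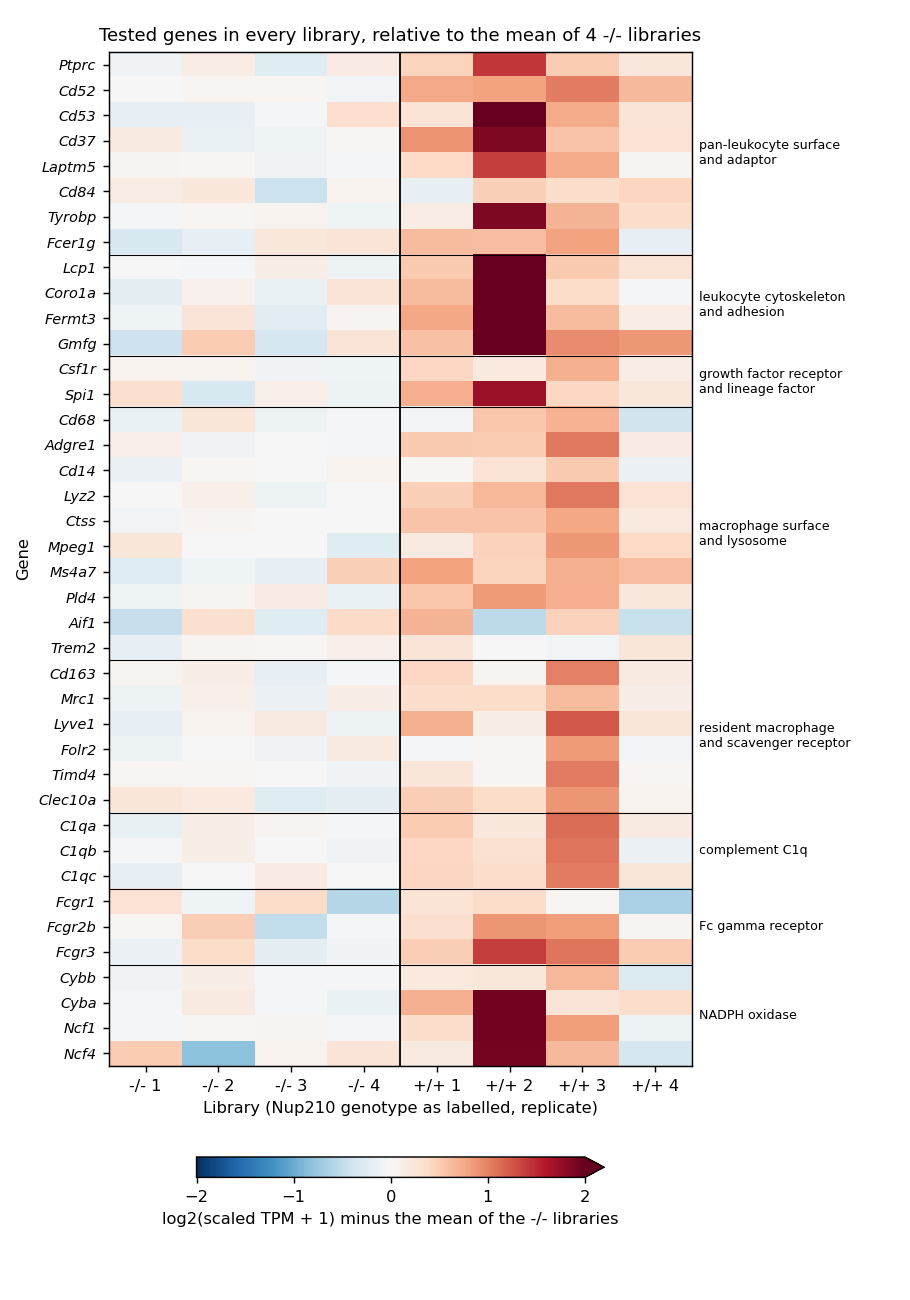
Each row is 1 tested gene and each column 1 library, with color for log2(scaled TPM + 1) minus the mean of the 4 Nup210-/- libraries (color saturates at 2). Red prevails in the Nup210+/+ columns, most in replicate 2 for the pan-leukocyte, cytoskeleton and NADPH oxidase classes and in replicate 3 for the resident macrophage and C1q classes, while replicate 4 is the palest of the Nup210+/+ columns.

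Summed over the 41 genes, expression was 308.93, 354.85, 327.62 and 315.53 TPM in the Nup210-/- libraries and 485.92, 687.28, 745.91 and 370.48 TPM in the Nup210+/+ libraries. All 4 Nup210-/- sums lay under all 4 Nup210+/+ sums, but the Nup210+/+ mice were far more dispersed (572 ± 175 TPM, SD, n = 4, against 327 ± 20.3 TPM, SD, n = 4), and replicate 4 was only slightly above the highest Nup210-/- library. Of the tested members, 31, 32, 38 and 23 lay above every Nup210-/- library in Nup210+/+ replicates 1 to 4 (77.5%, 80%, 95% and 57.5%), where 24.2%, 29.1%, 27.8% and 23.4% of all genes did so. Without Nup210+/+ replicate 2, 25 members were lower at an unadjusted p of 0.05 and the median log2 fold change was −0.44. Without replicate 3 they were 20 and −0.41, and without both 17 and −0.29, with 34 of 40 estimates below 0. The share of all genes lower at that p was 6.89%, 6.47% and 5.67% in these fits, in order. Without Nup210-/- replicate 3, 15 members were lower at that p, against 5.8% of all genes.

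**Figure D2:**
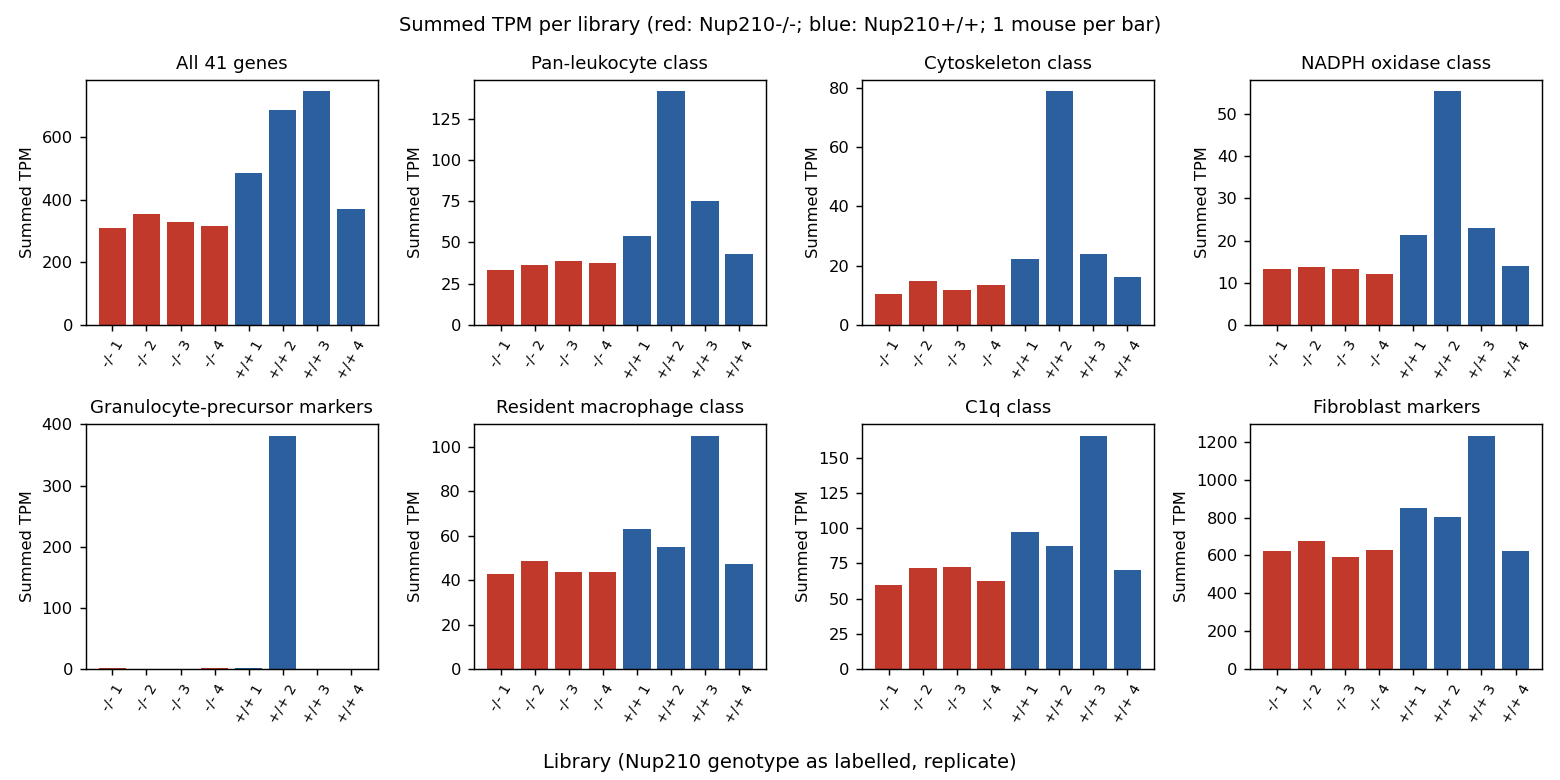
Bars are the summed TPM of a list in each of the 8 libraries, with red for Nup210-/- and blue for Nup210+/+. The granulocyte-precursor markers reach 381.69 TPM in Nup210+/+ replicate 2 alone, where the pan-leukocyte, cytoskeleton and NADPH oxidase classes peak, and the fibroblast markers reach 1233.32 TPM in replicate 3, where the resident macrophage and C1q classes peak.

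Csf1r is the receptor for the growth factors Csf1 and Il34. Its level was 9.01, 9.40, 8.60 and 7.90 TPM in the Nup210-/- libraries and at 12.61, 10.80, 17.32 and 9.67 TPM in the Nup210+/+ libraries. The genotypes did not overlap, although replicate 4 of Nup210+/+ was only just above the highest Nup210-/- value, and the estimate was −0.37 (SE 0.12, limma adjusted p = 0.240). Spi1 (chr2:91082390-91115756) was at 2.56, 1.37, 2.20 and 1.65 TPM without Nup210 and at 4.02, 9.15, 3.31 and 2.35 TPM with it. Replicate 2 was the high Nup210+/+ library and replicate 4 overlapped the Nup210-/- values (log2 fold change −0.77, SE 0.31, limma adjusted p = 0.301). Without replicate 2 the estimate for Spi1 was −0.45, whereas that for Csf1r was −0.43. Without replicate 3 they were −0.89 and −0.25, and without both −0.47 and −0.28.

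PU.1 binds a purine-rich core, and the letters GAGGAA were searched on both strands (TTCCTC on the other) in the 250 bases before each transcription start, taken from RefSeq on GRCm38.p6. Starts were given for 31 of the 41 genes. The letters were found before 16 of 38 starts (42.1%) and in 15 of 31 genes (48.4%), against 23.3% of the 32851 starts and 25.9% of the 27025 genes in the whole table. A match is a description of the sequence only, and binding was not measured. The windows of 6 members with a match are shown, with the match in capitals, 5′ to 3′ toward the start. Laptm5, Cd53 and Cd37 belong to the pan-leukocyte class, and Fcgr3, C1qb and Mrc1 each to another class.
Laptm5, chr4:130913066-130913315, plus strand: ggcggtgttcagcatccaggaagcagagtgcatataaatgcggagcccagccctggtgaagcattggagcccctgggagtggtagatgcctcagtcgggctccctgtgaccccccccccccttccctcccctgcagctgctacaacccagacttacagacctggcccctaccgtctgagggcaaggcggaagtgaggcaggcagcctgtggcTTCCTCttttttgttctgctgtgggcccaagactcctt
Cd53, chr3:106790150-106790399, minus strand: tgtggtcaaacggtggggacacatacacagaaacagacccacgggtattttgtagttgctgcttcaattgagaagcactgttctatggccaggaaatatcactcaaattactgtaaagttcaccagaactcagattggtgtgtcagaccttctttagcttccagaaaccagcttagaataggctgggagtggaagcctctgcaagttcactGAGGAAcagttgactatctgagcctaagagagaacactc
Cd37, chr7:45238840-45239089, minus strand: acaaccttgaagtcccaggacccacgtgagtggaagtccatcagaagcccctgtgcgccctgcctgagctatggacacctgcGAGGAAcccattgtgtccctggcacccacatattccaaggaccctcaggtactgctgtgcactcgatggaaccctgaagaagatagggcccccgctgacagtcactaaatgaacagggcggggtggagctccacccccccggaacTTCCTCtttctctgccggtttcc
Fcgr3, chr1:171059395-171059644, minus strand: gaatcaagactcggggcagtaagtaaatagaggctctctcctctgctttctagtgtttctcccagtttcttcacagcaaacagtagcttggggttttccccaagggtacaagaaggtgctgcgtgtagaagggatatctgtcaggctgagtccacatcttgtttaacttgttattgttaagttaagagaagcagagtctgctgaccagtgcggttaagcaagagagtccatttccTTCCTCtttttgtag
C1qb, chr4:136886201-136886450, minus strand: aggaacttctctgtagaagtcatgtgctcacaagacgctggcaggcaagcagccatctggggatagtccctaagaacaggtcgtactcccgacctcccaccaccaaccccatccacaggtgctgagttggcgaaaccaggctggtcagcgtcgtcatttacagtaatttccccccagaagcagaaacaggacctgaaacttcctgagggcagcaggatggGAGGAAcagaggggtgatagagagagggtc
Mrc1, chr2:14229164-14229413, plus strand: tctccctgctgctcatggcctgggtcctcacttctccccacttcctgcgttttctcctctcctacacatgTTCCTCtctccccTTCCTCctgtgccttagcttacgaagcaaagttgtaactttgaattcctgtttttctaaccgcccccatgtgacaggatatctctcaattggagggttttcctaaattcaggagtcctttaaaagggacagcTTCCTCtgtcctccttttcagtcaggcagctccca
The match lay 38 bases before the start in Laptm5, 39 in Cd53, 23 in Cd37, 15 in Fcgr3, 30 in C1qb and 35 in Mrc1, counted from the first base of the nearest match, and Cd37 and Mrc1 held 2 and 3 matches. The same match in Fcgr3 lay 6 bases before another start of that gene, and both starts are in the count above. For C1qb, the bases at the RefSeq start were not found near the start of a GENCODE transcript of the gene. In Nup210+/+ replicate 2, Cd53 was at 8.11 times and C1qb at 1.11 times the mean scaled TPM of replicates 1 and 4 (TPM divided by the scale factor of the library), so members with a match did not share one pattern.

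Cd52 (chr4:134082448-134095082, minus strand), a small glycoprotein anchored on lymphocytes and macrophages, was the member that passed the adjusted threshold. It was at 3.05, 3.32, 3.37 and 2.88 TPM in the Nup210-/- libraries and at 6.39, 6.66, 8.62 and 5.39 TPM in the Nup210+/+ libraries. Each Nup210+/+ mouse was above each Nup210-/- mouse, and replicate 2, which stood apart for Cd53 and the cytoskeleton genes, did not for Cd52. Mean TPM was 2.14-fold higher with Nup210, and the estimate was −0.81 (SE 0.098, limma adjusted p = 0.0490; two-sided exact permutation p = 0.0286, the smallest that 4 against 4 can give). The adjusted p lay just under the threshold, passed it in 7 of 20 alternatives, and was 0.0587 without Nup210+/+ replicate 2, 0.0542 without replicate 3 and 0.104 without both, while the estimate was −0.81, −0.74 and −0.70 in these 3 fits and stayed between −0.97 and −0.70 in all alternatives. Exons of Cd52 overlap those of Crybg2 on the opposite strand, which was listed at 0 in all 8 libraries.

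The other pan-leukocyte genes did not pass the adjusted threshold. Of the 8 genes in this class, 8 had an estimate below 0 (median −0.71), against 51.3% of all genes tested. At an unadjusted p of 0.05 (limma), 5 of the 8 were lower, against 7.18% of all genes. Lower at that p were 3 of 4 cytoskeleton genes, 3 of 6 resident macrophage genes and 2 of 2 in the class of Csf1r. For C1q, Fc gamma receptor and NADPH oxidase genes the count was 2 of 3, 1 of 3 and 1 of 4 tested. Cd37 (chr7:45233632-45239115), a tetraspanin, was at 1.32, 0.93, 1.01 and 1.10 TPM in the Nup210-/- libraries and at 3.03, 6.97, 2.40 and 1.51 TPM in the Nup210+/+ libraries. The genotypes did not overlap and replicate 2 was the highest (log2 fold change −0.90, SE 0.30, limma adjusted p = 0.231). Its estimate was −0.58 without replicate 2, −1.01 without replicate 3 and −0.59 without both. Tyrobp (chr7:30413760-30417585), an adaptor that carries the signal of many activating receptors, was at 9.64, 10.55, 11.04 and 9.13 TPM without Nup210 and at 11.94, 42.04, 19.40 and 12.98 TPM with it. The genotypes again did not overlap, but replicate 2 was far above all others, and the estimate went from −0.76 to −0.40 without it, −0.79 without replicate 3 and −0.25 without both. Ptprc, the leukocyte phosphatase CD45, and Laptm5, a lysosomal protein of leukocytes, had estimates of −0.65 and −0.65, which were −0.39 and −0.40 without replicate 2. Cd53, another tetraspanin, was at 43.04 TPM in replicate 2 and between 3.37 and 8.41 TPM in the other 7 libraries. Fcer1g, the partner adaptor of Tyrobp, was not high in replicate 2 (14.02 TPM, against 14.06 TPM in replicate 1), so the ratio of Fcer1g to Tyrobp was 0.333 there and 0.549 to 1.18 in the other 7 libraries. Cd84, a receptor of the SLAM family, had the smallest estimate of the class (−0.28).

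The 4 cytoskeleton and adhesion genes were each highest in Nup210+/+ replicate 2, and 19.1% of all tested genes were highest there. Lcp1 (chr14:75131101-75230842), the actin bundler L-plastin, was at 3.96, 4.04, 4.73 and 3.59 TPM in the Nup210-/- libraries and at 6.61, 23.98, 7.24 and 5.07 TPM in the Nup210+/+ libraries. Without overlap between genotypes, most of the difference in means came from a single mouse (log2 fold change −0.88, SE 0.37, limma adjusted p = 0.329, −0.44 without replicate 2, −1.0 without replicate 3 and −0.40 without both). Gmfg (chr7:28437447-28448233), a regulator of branched actin, had the lowest estimate of all members, with 1.61, 4.11, 1.86 and 3.09 TPM against 4.56, 18.64, 6.69 and 5.32 TPM. Its Nup210-/- values were themselves scattered, and replicate 2 was far above the next library (log2 fold change −1.20, SE 0.38, limma adjusted p = 0.218, −0.80 without replicate 2, −1.28 without replicate 3 and −0.73 without both). Coro1a (chr7:126699773-126707787), a coronin of the actin cortex, was at 4.15, 5.46, 4.62 and 5.93 TPM without Nup210 and at 8.79, 26.97, 7.77 and 4.86 TPM with it. Here the genotypes overlapped, since replicate 4 of Nup210+/+ lay among the Nup210-/- values. The estimate of −0.78 was −0.33 without replicate 2, −0.92 without replicate 3 and −0.31 without both. Exons of Coro1a overlap those of Bola2 on the opposite strand, which was at 21.2 to 31.38 TPM over the libraries. Fermt3, the kindlin that activates leukocyte integrins, went from −0.99 to −0.52 without replicate 2. The class median was −0.94 with all libraries, −0.48 without replicate 2 and −1.06 without replicate 3.

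**Figure D3:**
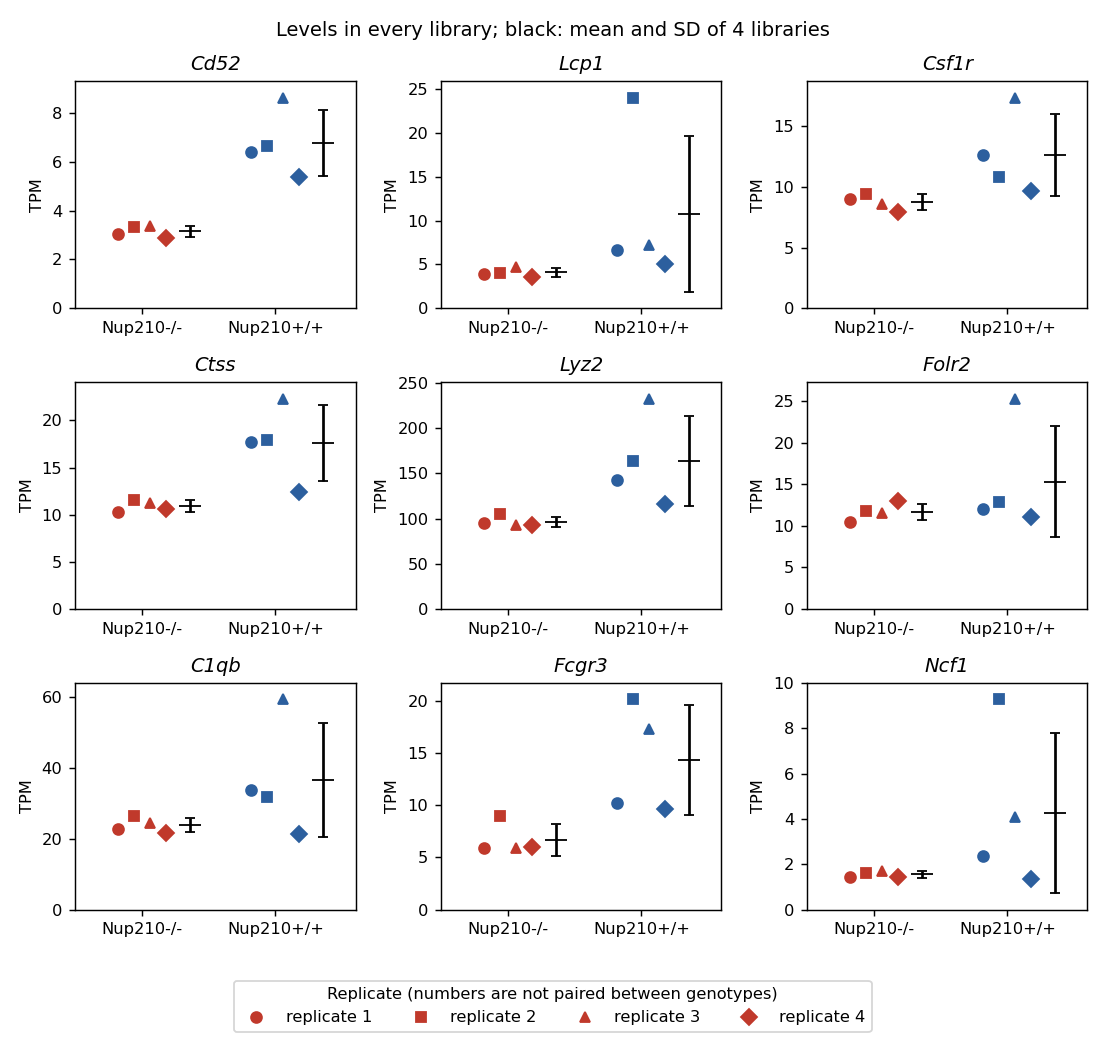
Points are TPM in single libraries for 9 genes, with red for Nup210-/- and blue for Nup210+/+, marker shape for the replicate and black bars for mean and SD (n = 4). Cd52 and Ctss separate the genotypes, with little spread among the Nup210-/- mice only. Lcp1 and Ncf1 are highest in Nup210+/+ replicate 2, and Folr2 and C1qb are highest in replicate 3.

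In the macrophage surface and lysosome class, 10 of 10 estimates were below 0 (median −0.50), against 51.3% of all genes tested. At an unadjusted p of 0.05 (limma), 6 of the 10 were lower, against 7.18% of all genes. Ctss (chr3:95526786-95556403), the lysosomal protease cathepsin S of antigen presentation, was at 10.25, 11.57, 11.25 and 10.58 TPM in the Nup210-/- libraries and at 17.73, 17.92, 22.31 and 12.44 TPM in the Nup210+/+ libraries. The genotypes did not overlap and the Nup210-/- mice were nearly alike (log2 fold change −0.53, SE 0.11, limma adjusted p = 0.117). Lyz2 (chr10:117277331-117282321), the lysozyme of myeloid cells, was the most abundant member, with 95.06, 105.04, 92.73 and 92.52 TPM without Nup210. With Nup210 it was at 142.27, 163.33, 232.69 and 116.65 TPM. Replicate 3 was the high library, replicate 4 the low one, and the genotypes did not overlap (log2 fold change −0.62, SE 0.14, limma adjusted p = 0.126). These genes did not follow replicate 2, since the estimates without it were −0.51 for Ctss and −0.61 for Lyz2. Without replicate 3 they were −0.45 and −0.48, and without both −0.38 and −0.38. Adgre1, which encodes the F4/80 antigen, Pld4, an endolysosomal nuclease, Ms4a7 and the pore-forming protein gene Mpeg1 had estimates of −0.56, −0.59, −0.65 and −0.48, and none passed the adjusted threshold. Cd68, Cd14, Aif1 and Trem2 had estimates between −0.21 and −0.05 with overlapping genotypes. Without replicates 2 and 3, the estimates for Cd68 and Cd14 were above 0 (0.21 and 0.04). Aif1, a calcium-binding protein of macrophages, was at 1.46 TPM in replicate 2, 0.465 times the mean of replicates 1 and 4 in scaled TPM.

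All 6 genes of the resident macrophage class were highest in Nup210+/+ replicate 3, where 15.8% of all genes were highest, and none passed the adjusted threshold. Mrc1 (chr2:14229392-14332057), the mannose receptor, was at 7.44, 9.14, 7.79 and 8.81 TPM in the Nup210-/- libraries and at 11.52, 11.68, 15.57 and 9.01 TPM in the Nup210+/+ libraries. The genotypes overlapped in TPM by 1 pair of mice but not after scaling (log2 fold change −0.37, SE 0.12, limma adjusted p = 0.211). Its estimate was −0.37 without replicate 2, −0.28 without replicate 3 and −0.24 without both. Lyve1 (chr7:110850607-110863239), a hyaluronan receptor that lymphatic endothelium also expresses, was at 7.26, 9.04, 10 and 7.53 TPM without Nup210 and at 15.22, 9.88, 24.51 and 9.92 TPM with it. Replicates 1 and 3 were high while replicates 2 and 4 lay within the Nup210-/- range in TPM, and replicate 4 lay above it after scaling. The estimate was −0.58 (SE 0.22, limma adjusted p = 0.292), and −0.73, −0.36 and −0.47 without replicate 2, replicate 3 and both. Folr2 (chr7:101839988-101857194), the folate receptor of resident macrophages, had the highest mean of the class, with 10.49, 11.74, 11.50 and 12.92 TPM against 11.97, 12.88, 25.28 and 11.04 TPM. Only replicate 3 left the range of the others, and the estimate of −0.20 was 0.02 without it, −0.25 without replicate 2 and 0.05 without both. Timd4, a receptor for phosphatidylserine on dying cells, was at 3.86 TPM in replicate 3 and at 0.99 to 1.61 TPM elsewhere. Cd163, the receptor for hemoglobin bound to haptoglobin, and the lectin Clec10a had estimates of −0.42 and −0.46, which were −0.22 and −0.31 without replicate 3. The class sum divided by that of the 5 fibroblast genes was 0.0710 ± 0.0024 (SD, n = 4) in Nup210-/- and 0.0759 ± 0.0071 (SD, n = 4) in Nup210+/+ muscle, ranging from 0.0689 to 0.0739 and from 0.0681 to 0.0852. The sum of the class in TPM therefore differed between genotypes by a larger ratio than did this quotient. The quotient was formed only for this class and C1q, which peaked in replicate 3 as the fibroblast genes did. Mean fibroblast sums were 629 TPM without and 878 TPM with Nup210. In the same order, sums were 12.6 and 35.3 TPM for the cytoskeleton, 36.5 and 78.5 for the pan-leukocyte and 13.1 and 28.4 for the NADPH oxidase class.

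The 3 chains of C1q, the recognition molecule of the classical complement pathway, lie next to each other on chromosome 4, with facing ends 2852 bases apart for C1qc and C1qa and 3617 bases apart for C1qb and C1qc. C1qa (chr4:136895917-136898803) was at 20.16, 25.43, 24.69 and 21.77 TPM in the Nup210-/- libraries and at 35.15, 28.56, 58.87 and 25.83 TPM in the Nup210+/+ libraries. C1qb (chr4:136880129-136886187) was at 22.82, 26.34, 24.46 and 21.76 TPM and at 33.82, 31.77, 59.41 and 21.52 TPM, in the same order. C1qc (chr4:136889804-136893065) was at 17.01, 19.89, 23.10 and 19.10 TPM and at 28.58, 27.17, 47.65 and 23.11 TPM. All 3 peaked in replicate 3, and replicate 4 was at the edge of the Nup210-/- range, just above it for C1qa and C1qc and below it for C1qb. The estimates were −0.51 (SE 0.19), −0.42 (SE 0.21) and −0.51 (SE 0.16), with limma adjusted p of 0.275, 0.399 and 0.211. Without replicate 3 they were −0.30, −0.20 and −0.34, without replicate 2 −0.60, −0.45 and −0.57, and without both −0.35, −0.14 and −0.34. The chains kept similar proportions, with a ratio of C1qa to C1qb of 0.965 ± 0.057 (SD, n = 4) in Nup210-/- and 1.03 ± 0.13 (SD, n = 4) in Nup210+/+ muscle. Relative to the fibroblast genes, the C1q sum was 0.106 ± 0.011 and 0.118 ± 0.011 (SD, n = 4 each), with overlapping values.

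Fc gamma receptors bind immunoglobulin G, and Fcgr2b is the inhibitory member. Fcgr3 (chr1:171051174-171064935), an activating receptor, was at 5.89, 8.95, 5.88 and 6.04 TPM in the Nup210-/- libraries and at 10.20, 20.12, 17.32 and 9.61 TPM in the Nup210+/+ libraries. The genotypes did not overlap, with replicates 2 and 3 high (log2 fold change −0.86, SE 0.22, limma adjusted p = 0.154, −0.69 without replicate 2, −0.79 without replicate 3 and −0.49 without both). Fcgr2b (chr1:170958617-170976547) was at 6.24, 9.21, 4.23 and 5.80 TPM without Nup210 and at 8.47, 13.07, 13.61 and 6.32 TPM with it. Its genotypes overlapped (log2 fold change −0.52, SE 0.24, limma adjusted p = 0.365, −0.40 without replicate 2, −0.42 without replicate 3 and −0.19 without both). Of the 75-base windows in the longest Fcgr3 transcript, 7.38% also occur in Fcgr2b, so the split of reads between them is uncertain to that extent. Fcgr1, the high-affinity receptor, was low in replicate 4 of both genotypes (0.23 and 0.18 TPM), between 0.74 and 1.44 TPM elsewhere, and its estimate of −0.01 changed sign with the library left out. Fcgr4 was at 0.24 to 0.72 TPM over the 8 libraries.

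The NADPH oxidase makes superoxide from a membrane pair, Cybb and Cyba, and cytosolic subunits that include Ncf1 and Ncf4. Cyba (chr8:122424776-122432930) was at 7.58, 9.26, 7.90 and 6.89 TPM in the Nup210-/- libraries and at 14.30, 34.95, 11.09 and 10.13 TPM in the Nup210+/+ libraries. The genotypes did not overlap and replicate 2 was far above the rest (log2 fold change −0.81, SE 0.32, limma adjusted p = 0.305). Its estimate was −0.44 without replicate 2, −0.99 without replicate 3 and −0.53 without both. Ncf1 (chr5:134220053-134229625) was at 1.45, 1.61, 1.72 and 1.43 TPM without Nup210 and at 2.37, 9.27, 4.09 and 1.36 TPM with it. Replicate 4 was under every Nup210-/- value (log2 fold change −0.75, SE 0.37, limma adjusted p = 0.388), and the estimate was −0.36 without replicate 2, −0.73 without replicate 3 and −0.12 without both. Cybb, whose product pairs with that of Cyba, did not share its peak and was at 2.95 TPM in replicate 2 and 4.75 TPM in replicate 3. The ratio of Cyba to Cybb was thus 11.8 in replicate 2 and 2.33 to 6.18 in the other Nup210+/+ libraries, against 3.34 to 3.75 in the Nup210-/- libraries. The class median was −0.68 with all libraries, −0.28 without replicate 2 and −0.04 without replicates 2 and 3, where the estimates of Cybb and Ncf4 were above 0 (0.04 and 0.09).

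**Figure D4:**
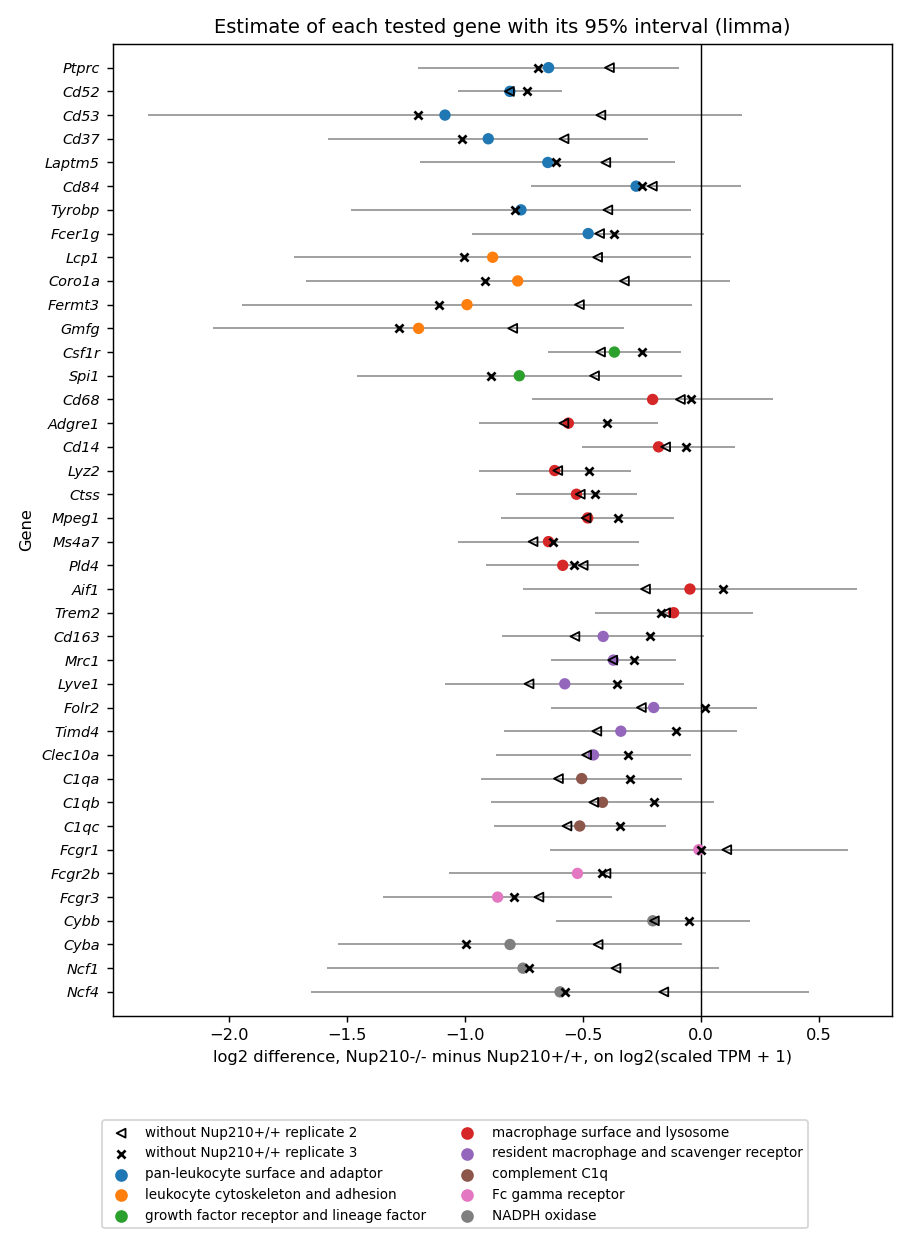
Filled points are the log2 differences (Nup210-/- minus Nup210+/+) with 95% intervals from limma for 40 genes, colored by class, beside the estimates without Nup210+/+ replicate 2 (open triangles) or replicate 3 (crosses). All 40 filled points lie below 0, triangles lie nearer to 0 than crosses for the cytoskeleton genes, and crosses lie nearer to 0 for the C1q and most resident macrophage genes.

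Most members were highest in one of 2 Nup210+/+ libraries, with 17 of 40 highest in replicate 2, 19 in replicate 3, 3 in replicate 1 (Ms4a7, Aif1 and Trem2), none in replicate 4 and 1, Fcgr1, in Nup210-/- replicate 3. Of all genes tested, 19.1%, 15.8%, 8.95% and 12.1% were highest in those 4 Nup210+/+ libraries in that order, and 10.5%, 9.52%, 11.2% and 12.8% in Nup210-/- replicates 1 to 4. In replicate 2, Cd53 was at 8.11, Ncf4 at 6.28, Fermt3 at 5.53, Ncf1 at 4.79 and Lcp1 at 3.94 times the mean scaled TPM of Nup210+/+ replicates 1 and 4, while Lyve1 and Cd163 were at 0.756 and 0.828 times that mean. In replicate 3, Timd4 was at 2.46, Folr2 at 1.94, C1qb at 1.91 and Lyve1 at 1.73 times that mean, while Coro1a and Lcp1 were at 1.01 and 1.10 times. As a share of the summed TPM of the 41 genes, the cytoskeleton class took 11.5% in replicate 2 and 3.19 to 4.57% in the other 7 libraries, and the resident macrophage class took 7.96% and 12.8 to 14.1%. These shares differed little between genotypes outside replicate 2, with C1q at 19.4 to 22.1% in the Nup210-/- libraries and 19.0 to 22.2% in the other Nup210+/+ libraries.

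**Figure D5:**
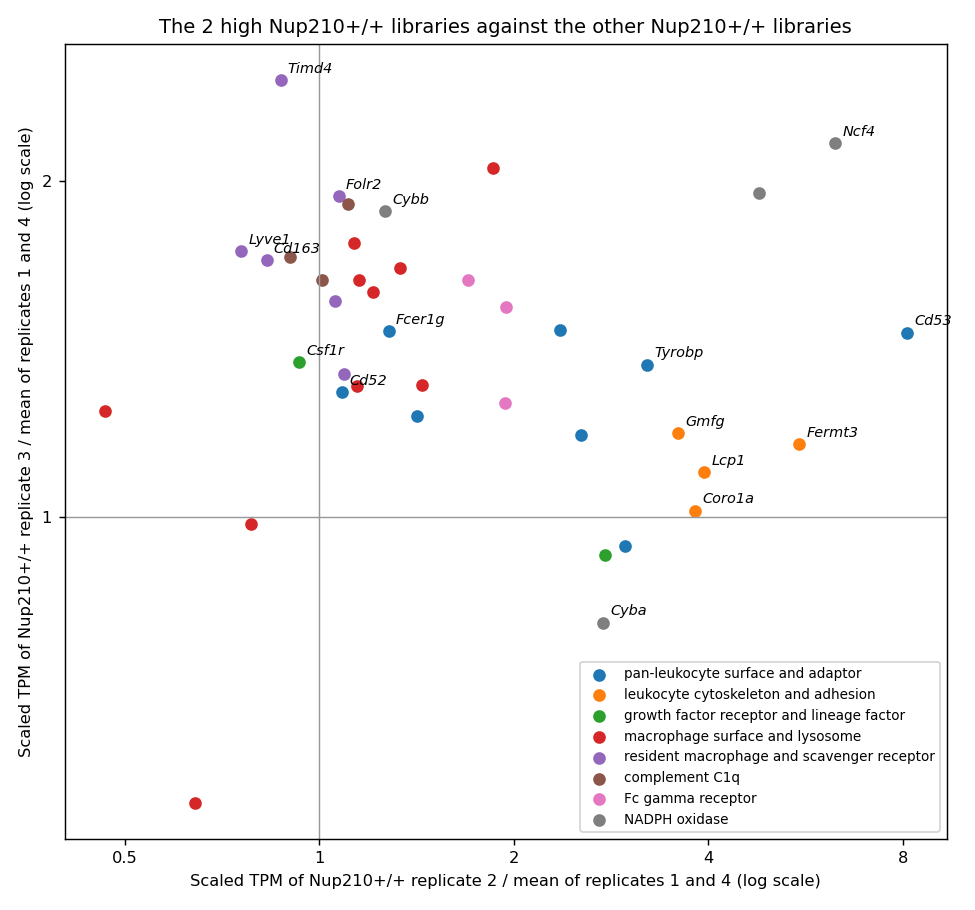
Each point is 1 tested gene, at its scaled TPM in Nup210+/+ replicate 2 (horizontal) and replicate 3 (vertical) divided by the mean scaled TPM of replicates 1 and 4, both on log scales. Cytoskeleton genes lie at 3.59 to 5.53 times on the horizontal axis and 1.01 to 1.19 times on the vertical axis, and resident macrophage genes at 0.756 to 1.09 and 1.34 to 2.46 times.

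A further 55 genes of these cells, written as lists by role with earlier results of these data known, had a weaker displacement. Of 50 tested rows, 46 estimates were below 0 (51.3% of all genes were) and 4 above, with a median of −0.32. None passed the adjusted threshold (limma, Benjamini-Hochberg), and 11 (22.0%) were lower and 0 higher at an unadjusted p of 0.05, against 7.18% and 7% of all genes. The 11 became 5 without Nup210-/- replicate 1, 6 without Nup210-/- replicate 3, 6 without Nup210+/+ replicate 3 and 23 without Nup210+/+ replicate 4. The share of all genes lower at that p was 5.57%, 5.8%, 6.47% and 9.45% in these fits, in order. Without Nup210+/+ replicates 2 and 3, 5 of these leukocyte genes were lower and 1 higher, and 5.67% of all genes were lower. Among the ligands of Csf1r, Il34 was at 2.52 ± 0.31 TPM without and 4.42 ± 1.68 TPM with Nup210 (SD, n = 4 each; log2 fold change −0.50, SE 0.18, limma adjusted p = 0.274), and its estimate was −0.54 without replicate 2, −0.36 without replicate 3 and −0.35 without both. Csf1 was at 6.95 ± 0.50 and 8.71 ± 2.37 TPM (log2 fold change −0.17, limma adjusted p = 0.629). Slc11a1, a metal transporter of the phagosome, had the lowest unadjusted p of these genes, at 1.67, 1.29, 1.80 and 1.62 TPM in the Nup210-/- libraries and 3.01, 2.41, 4.83 and 3.34 TPM in the Nup210+/+ libraries. Its genotypes did not overlap and replicate 2 was the lowest Nup210+/+ library (log2 fold change −0.67, SE 0.15, limma adjusted p = 0.126, and −0.78, −0.56 and −0.67 without replicate 2, replicate 3 and both). The integrin subunit Itgam and the endotoxin receptor Tlr4 did not overlap between genotypes after scaling either (log2 fold changes −0.70 and −0.49, limma adjusted p of 0.189 and 0.179), and without both replicates the estimates were −0.39 and −0.31.

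The transcription factors of these cells had no shared direction, with 4 of 7 estimates below 0 (51.3% of all genes were) and a median of −0.02. None passed an unadjusted p of 0.05 (limma), where 7.18% of all genes were lower and 7% higher. Maf, a factor of macrophage maturation that other cells of muscle also express, was at 86.9 ± 5.12 TPM without and 87.8 ± 7.38 TPM with Nup210 (SD, n = 4 each; log2 fold change 0.08, SE 0.087, limma adjusted p = 0.700). The costimulatory receptor Cd86 was at 1.73 ± 1.09 and 1.45 ± 0.746 TPM (log2 fold change 0.19, SE 0.31, limma adjusted p = 0.806). The genotypes overlapped for both genes.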

How the data were processed

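Quadriceps RNA from 4 Nup210-/- and 4 Nup210+/+ mice was sequenced single-end (75 bases) from directional polyadenylated libraries. Per the labels and the methods of the study, the authors trimmed reads with cutadapt 2.3, aligned them to mm10 with STAR 2.7.0d, estimated expression with RSEM 1.3.1 and deposited TPM per gene and library, with 2 decimals. The strand setting of RSEM is not given in the sources used here. The TPM table holds no counts, so the count test of the study could not be fitted and depth is unknown.

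TPM were scaled per library by the median of ratios over 15225 genes above 0 in every library. The 14229 genes with a mean of at least 0.5 TPM were tested on log2(scaled TPM + 1) with limma 3.58.1 (R 4.3.3, lmFit, eBayes with trend), genotype as the only term, all 8 libraries, and Benjamini-Hochberg adjustment over all genes. This scale understates changes of low genes. The fit was tested on simulated data. Fold ratios between genotypes were taken from mean TPM and those between libraries from scaled TPM. Single genes also had two-sided exact permutation tests over 70 labelings (smallest p 0.0286). Samples were grouped by title. The mice are separate animals.

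The members and lists were chosen with earlier results of these data known. Named with a value in every library were members past the adjusted threshold and, in each class, the 2 with the lowest unadjusted p and the most abundant one. Of the further leukocyte genes, the 3 with the lowest unadjusted p in each direction, and Csf1 and Il34 were named, except for values that are not reported here. Other members named in the text were named after their values were seen. The analysis was repeated with a pseudocount of 0.1 or 0.5, with low genes kept at any TPM or a mean of 0.1 or 1, with unscaled TPM, upper-quartile scaling, eBayes without trend or robust, library weights, the replicate number as a block, and leaving out each library. Leaving out Nup210+/+ replicates 2 and 3 together was added after seeing the data.

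Positions, exon overlaps and 75-base windows came from GENCODE M21 (GRCm38, mm10), matched by Ensembl identifier, and promoters from RefSeq (GRCm38.p6). Exons of 9 members overlap a gene on the opposite strand. Over the libraries, this gene was at 21.2 to 31.38 TPM for Coro1a, 11.86 to 16.31 for Fermt3 and 5.55 to 7.49 for Csf1r. It was at 3.06 to 6.99 TPM for Folr2, 3.43 to 5.37 for Ncf1 and 0.33 to 1.19 for Cd37. For Cd52, Lcp1 and Fcgr2b it was at 0. With the strand setting unknown, the effect on these members is unknown. Windows shared with another gene were 2.18 to 7.38% in Lcp1, Gmfg, Lyz2, Clec10a, Fcgr2b and Fcgr3, with partners that include Lyz1 for Lyz2 and Mgl2 for Clec10a. Figures used matplotlib 3.10.9.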

Additional observations from a re-analysis of the deposited data

Results flagged for a closer look

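Of 80 groups of 4 mice (40 tested members in each genotype), 2 held 1 mouse far from the other 3, where chance gives about 1 in 20 groups, or 4. In the Nup210+/+ mice, Lcp1 was highest in replicate 2, and the gap to the next mouse was 0.877 of the whole range. In the same genotype Folr2 was highest in replicate 3, with a gap of 0.894 of the range.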

How the results depend on the processing

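The count of members lower at an adjusted p of 0.05 (1, Cd52) was 0 with filters at any TPM above 0 or a mean of 0.1, with unscaled TPM, without the trend and without Nup210+/+ replicates 2 and 3, 2 with library weights (Cd52 and Ctss), and 0 to 2 when single libraries were left out. It was 1 in the other 5 alternatives. Correlations of deviations between genotypes were −0.03 to 0.09 for equal replicate numbers and −0.08 to 0.10 for unequal ones. They showed no pairing of mice by number, but cannot exclude one. With the number as a block, the count of members lower at an adjusted p of 0.05 was 0 (Cd52 limma adjusted p = 0.226). The block moved no other count by over 1.5 times (24 members lower at an unadjusted p of 0.05). Members lower at an unadjusted p of 0.05 (23) numbered 15 without Nup210-/- replicate 3 and 15 to 30 over all single libraries left out. They numbered 17 without Nup210+/+ replicates 2 and 3, and 20 to 26 in the remaining alternatives. The share of all genes lower at that p was 5.57 to 9.45% with single libraries left out and 5.11 to 11.8% in the other alternatives. Counts without overlap (17) were 15 to 25, while the share of all genes was 3.11 to 10.5%. The median of −0.55 was −0.29 without replicates 2 and 3, and −0.69 to −0.41 with single libraries left out. Further leukocyte genes lower at an unadjusted p of 0.05 (11) numbered 5 without both, and 5 to 23 with single libraries left out (5 and 6 without Nup210-/- replicates 1 and 3, 6 and 23 without Nup210+/+ replicates 3 and 4). Those higher (0) numbered 1 without both, and 0 to 1 otherwise (1 without Nup210+/+ replicate 3). Estimates of members kept their sign except in 17 cases. Without both replicates these were Cd14 (0.039), Cd68 (0.21), Cybb (0.037), Fcgr1 (0.18), Folr2 (0.046) and Ncf4 (0.090). With single libraries left out, Aif1 ranged from −0.24 to 0.16, Fcgr1 from −0.23 to 0.18 and Folr2 from −0.29 to 0.016. With a pseudocount of 0.1, Fcgr1 was at 0.010. Depth is unknown, so low members such as Trem2, Fcgr1 and Fcgr4 have no counting error here.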
